A study of Mus musculus with 12 samples.

Results

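The 3 libraries of mouse pre-B acute lymphoblastic leukemia cells labelled Phf6 wild type (WT) were taken out of a series of 12 RNA-seq libraries, by the group given in the sample titles, and are described here as a baseline without a contrast. The cells were of C57BL/6J background, p19 null and transformed with BCR-ABL1, as were the cells of the other 3 groups of 3 libraries each, which carried a short hairpin RNA against Phf6 (KD) or a Phf6 knockout made with the guide RNA named sg1 or sg4 (KO_sg1 and KO_sg4). No age of the donor mice, no promoter driving BCR-ABL1 and no clone number was given in the labels used here, so whether the WT libraries stand for 1 clone or many is not known. The labels do not say whether separate cultures were used for the 3 WT libraries, so their spread may be purely technical. Levels are estimated counts scaled to a common library total, as CPM, and each value after ± is the SD over the 3 WT libraries (n = 3).

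Pre-B cells are B-cell precursors that have assembled an immunoglobulin heavy chain and display it with the surrogate light chain, made of VpreB and lambda5 proteins, as the pre-B cell receptor. CD79A and CD79B carry its signal to the kinases SYK and BTK, and the factors E2A (Tcf3), EBF1 and PAX5 hold the B-cell programme in place. BCR-ABL1 is a constitutively active tyrosine kinase known to signal through JAK-STAT, RAS-ERK and PI3 kinase pathways and to relieve such precursors of their need for interleukin 7, and loss of p19ARF, a product of Cdkn2a, is known to ease their transformation.

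The start regions of 7 genes are shown first, because the expressed receptor genes held fewer CpG there than an expressed transcription factor gene and replication gene, with 1 silent myeloid gene set beside them. Each window runs from 250 bases before to 50 bases after the RefSeq start, 5′ to 3′ on the gene's strand, on GRCm38.p6, with every CpG dinucleotide in capitals. The surrogate light chain genes were Vpreb1 at chr16:16869206-16869505 on the minus strand, Vpreb2 at chr16:17980315-17980614 on the plus strand and Igll1 (lambda5) at chr16:16863936-16864235 on the minus strand, and the receptor component was Cd79a at chr7:24897247-24897546 on the plus strand. The transcription factor gene was Tcf3 at chr10:80433586-80433885 on the minus strand, the replication gene Mcm7 at chr5:138171834-138172133 on the minus strand, and the silent gene Mpo (myeloperoxidase) at chr11:87793534-87793833 on the plus strand.
Vpreb1: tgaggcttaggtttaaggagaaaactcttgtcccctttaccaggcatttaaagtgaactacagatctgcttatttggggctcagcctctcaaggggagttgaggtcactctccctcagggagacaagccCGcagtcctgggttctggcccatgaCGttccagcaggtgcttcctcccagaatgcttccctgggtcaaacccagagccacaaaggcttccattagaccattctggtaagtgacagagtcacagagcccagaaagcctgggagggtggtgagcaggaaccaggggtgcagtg
Vpreb2: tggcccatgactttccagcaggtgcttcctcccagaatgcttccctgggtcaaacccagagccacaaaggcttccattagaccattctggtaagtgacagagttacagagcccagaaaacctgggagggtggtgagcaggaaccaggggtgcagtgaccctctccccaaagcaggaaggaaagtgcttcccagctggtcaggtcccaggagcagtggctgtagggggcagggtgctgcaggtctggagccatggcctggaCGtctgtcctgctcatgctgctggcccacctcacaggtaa
Igll1: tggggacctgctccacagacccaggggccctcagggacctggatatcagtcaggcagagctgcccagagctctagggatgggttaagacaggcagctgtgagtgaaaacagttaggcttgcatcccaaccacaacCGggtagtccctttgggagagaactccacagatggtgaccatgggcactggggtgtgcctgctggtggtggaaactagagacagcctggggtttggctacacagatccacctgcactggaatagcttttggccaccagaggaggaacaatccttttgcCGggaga
Cd79a: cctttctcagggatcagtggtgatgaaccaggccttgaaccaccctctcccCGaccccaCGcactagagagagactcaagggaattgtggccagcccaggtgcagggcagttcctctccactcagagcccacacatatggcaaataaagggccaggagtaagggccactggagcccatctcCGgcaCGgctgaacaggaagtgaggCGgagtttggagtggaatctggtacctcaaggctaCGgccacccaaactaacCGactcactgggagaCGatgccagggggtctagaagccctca
Tcf3: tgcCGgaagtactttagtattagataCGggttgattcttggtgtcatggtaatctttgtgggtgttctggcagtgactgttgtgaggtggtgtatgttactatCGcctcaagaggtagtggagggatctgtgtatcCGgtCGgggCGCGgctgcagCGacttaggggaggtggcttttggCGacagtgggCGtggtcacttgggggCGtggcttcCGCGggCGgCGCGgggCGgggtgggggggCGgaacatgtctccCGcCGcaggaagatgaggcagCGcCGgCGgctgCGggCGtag
Mcm7: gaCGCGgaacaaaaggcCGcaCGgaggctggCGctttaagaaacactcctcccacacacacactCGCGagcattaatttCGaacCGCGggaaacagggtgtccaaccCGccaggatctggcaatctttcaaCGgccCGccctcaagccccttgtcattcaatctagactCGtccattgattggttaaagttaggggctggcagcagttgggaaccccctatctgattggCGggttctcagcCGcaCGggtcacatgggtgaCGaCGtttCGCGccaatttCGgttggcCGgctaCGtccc
Mpo: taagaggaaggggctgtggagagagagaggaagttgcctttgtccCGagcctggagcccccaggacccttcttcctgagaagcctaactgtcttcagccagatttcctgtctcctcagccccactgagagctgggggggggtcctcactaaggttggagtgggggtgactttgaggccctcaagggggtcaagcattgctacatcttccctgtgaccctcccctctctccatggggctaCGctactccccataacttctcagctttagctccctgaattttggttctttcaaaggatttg

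These windows held 2 CpG for Vpreb1, 1 for Vpreb2, 2 for Igll1 and 8 for Cd79a, against 25 for Tcf3 and 24 for Mcm7. The window of Mpo, a gene at 0.0236 ± 0.0206 CPM, held 2, so a count this low was shared by the most abundant lineage genes and by a silent one. The E-box letters CACCTG, searched on both strands (CAGGTG on the other), occurred 1 time in each of the Vpreb1, Vpreb2, Igll1 and Cd79a windows, with the first base at 163, 19, 243 and 97 counted from 1 at the 5′ end, and were not found in the other 3. Vpreb1 and Vpreb2 shared a run of 91 identical bases in their windows, against 10 for Vpreb1 and Igll1. The run of 91 holds the CAGGTG of both Vpreb1 and Vpreb2, so their matches lie in a shared stretch. The estimated counts of near-identical genes such as this pair depend on how reads were shared among them.

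Of 23224 genes, 10551 (45.4%) stood at 1 CPM or more in all 3 WT libraries and are called expressed below, and 7330 (31.6%) had an estimated count of 0 in all 3. The other 5343 genes had reads but were under 1 CPM in at least 1 library, and together held 0.118% of all counts. Library totals were 30209246, 30580071 and 26286540 estimated counts, so that 3 counts, the floor used for a gene at 0, came to 0.0993, 0.0981 and 0.114 CPM, or 0.0345 CPM over the 3 libraries pooled. Taken singly, libraries 1, 2 and 3 had 10703, 10702 and 10748 genes at 1 CPM or more and 8525, 8452 and 8649 genes at 0. Expression was concentrated: 130 genes averaging 1000 CPM or more held 31.2% of the counts, 512 genes held 50% and 4569 genes held 90%.

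**Figure D1:**
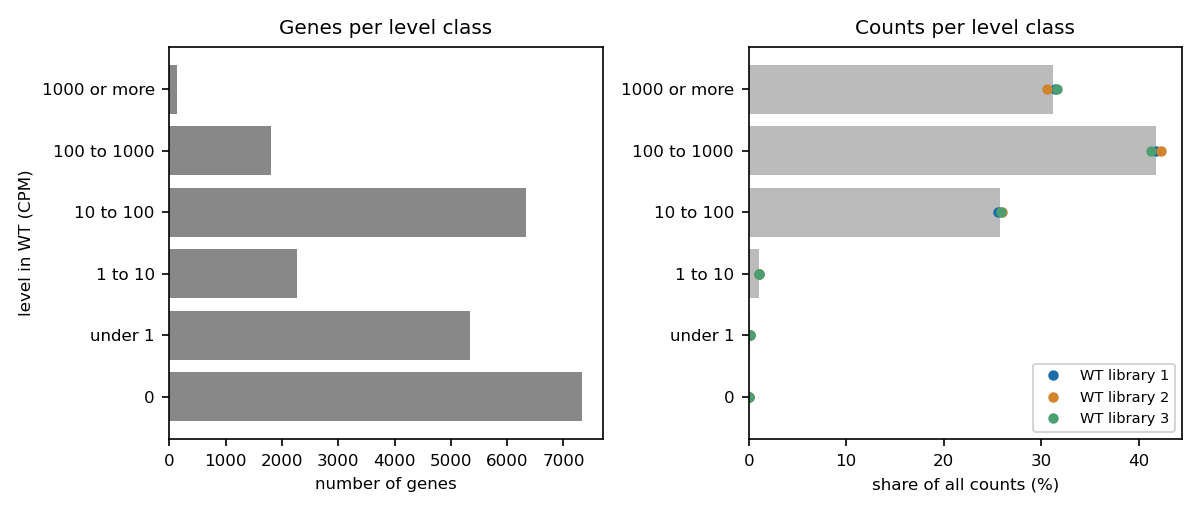
Number of genes (left) and share of all estimated counts in percent (right) by level class in WT. Grey bars are the 3 libraries together and points are single libraries, the class under 1 holds genes with reads that were below 1 CPM in at least 1 library, and the class of 1000 CPM or more holds 130 genes and 31.2% of counts.

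The WT libraries were close to each other. Over 8280 genes with a mean of 10 CPM or more, the median SD of log2 CPM was 0.0485, the median coefficient of variation was 3.37%, and 7407 genes (89.5%) had an SD under 0.1. Between pairs of libraries, 4, 9 and 11 of these genes were more than 1.5-fold apart (libraries 1 and 2, 1 and 3, 2 and 3). Over genes with at least 10 counts in the pair, chi-square per degree of freedom was 20.5, 12.8 and 54.9 in the same order. The chi-square of the median gene was 0.695, 0.997 and 1.07. By chi-square per degree of freedom, taken with the ribosomal RNA precursor Rn45s included, libraries 1 and 3 were the closest pair. Libraries 1 and 2 were the closest by the median gene and by the number of genes over 1.5-fold apart. They were also the closest by Pearson r of log2 CPM, at 0.9987. By gene length, library 3 stood slightly apart from library 2. The median log2 difference went from -0.05 for the shortest of 5 equal groups of genes by length to 0.09 for the longest. Rn45s took 2.43%, 0.915% and 3.94% of counts in libraries 1, 2 and 3, and its part in the other differences was not tested.

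The cells are labelled pre-B, and every one of the 16 pre-B cell markers was expressed, beside 45.4% of all genes. The summed level of these markers ran from 7947 to 8510 CPM across libraries. In the marker plot their levels overlapped those of some markers of other stages. Cd22 at 165 CPM and Spn at 113 CPM lay above Il7r at 29.2 CPM and Rag2 at 9.67 CPM, among others. Cd79b, a signalling chain of the receptor, stood at 693, 698 and 667 CPM, Pax5 at 122, 130.2 and 116 CPM, and Ebf1 at 58.8, 54.1 and 58.1 CPM, and the 3 libraries differed little for each. Il7r, the interleukin 7 receptor alpha chain, was 28.6, 29.0 and 30.0 CPM, or 8.28 ± 0.210 CPM per kilobase of transcript (CPM/kb), against 522 ± 12.7 for Cd79b. In bulk RNA, fewer cells of a type and less RNA per cell cannot be told apart, so a low level of another type's marker may be a few cells or a low level in all.

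Among markers of neighbouring stages, 3 of 6 mature B, 1 of 4 plasma cell and 1 of 5 pro-B and progenitor markers were expressed. The share of all genes expressed was 45.4%, and that of the mature B markers lay near it. Ms4a1 (CD20), a gene of mature B cells, had 0.0993, 0 and 0 CPM, and Fcer2a (CD23) had 0.227, 0.0893 and 0.115 CPM, both under 1 CPM throughout. Of the 6 mature B markers, Cr2 (CD21) at 28.6 ± 0.772 CPM, Cd22, an inhibitory co-receptor, at 165 ± 2.23 CPM and Ciita at 1.79 ± 0.412 CPM were expressed. Prdm1 (BLIMP1), which drives plasma cells, was at 0 in every library, while Sdc1 (CD138) reached 8.79 ± 0.593 CPM. Kit, the stem cell factor receptor of earlier progenitors, was at 0, Dntt (terminal transferase), a pro-B gene, was 0.397, 0.164 and 0.342 CPM, and Flt3 was 0.397, 0.425 and 0.723 CPM. Spn (CD43), in contrast, was 114, 113 and 113 CPM and was the only 1 of the 5 pro-B and progenitor markers to be expressed.

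The defining markers of other lineages summed to little beside the pre-B markers. The 7 T cell markers came to 5.0 to 6.14 CPM per library, with Cd3e, Cd3g and Cd4 at 0 and Zap70, at 4.63 ± 0.617 CPM, the 1 expressed. Of the 7 myeloid markers 3 were expressed, a share near the 45.4% of all genes, and the 7 summed to 14.2 to 14.9 CPM. Lyz2 (lysozyme) gave 8.30 ± 0.278, Itgam 4.54 ± 0.146 and Csf1r 1.45 ± 0.171, while Mpo, Elane, Cd14 and Emr1 were each under 1 CPM in all libraries. The wider myeloid list had 12 of 33 genes expressed (36.4%) and summed to 77.9 to 81.4 CPM. Csf2ra at 11.7 and Cd68 at 6.73 CPM/kb were its highest members per length. The NK markers summed to 0.112 to 0.306 CPM with Ncr1 at 0, the erythroid markers to 0.304 to 2.97 CPM, and the stromal markers to 1.14 to 1.41 CPM, nearly all of it Cdh5, with Col1a2 at 0.

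**Figure D2:**
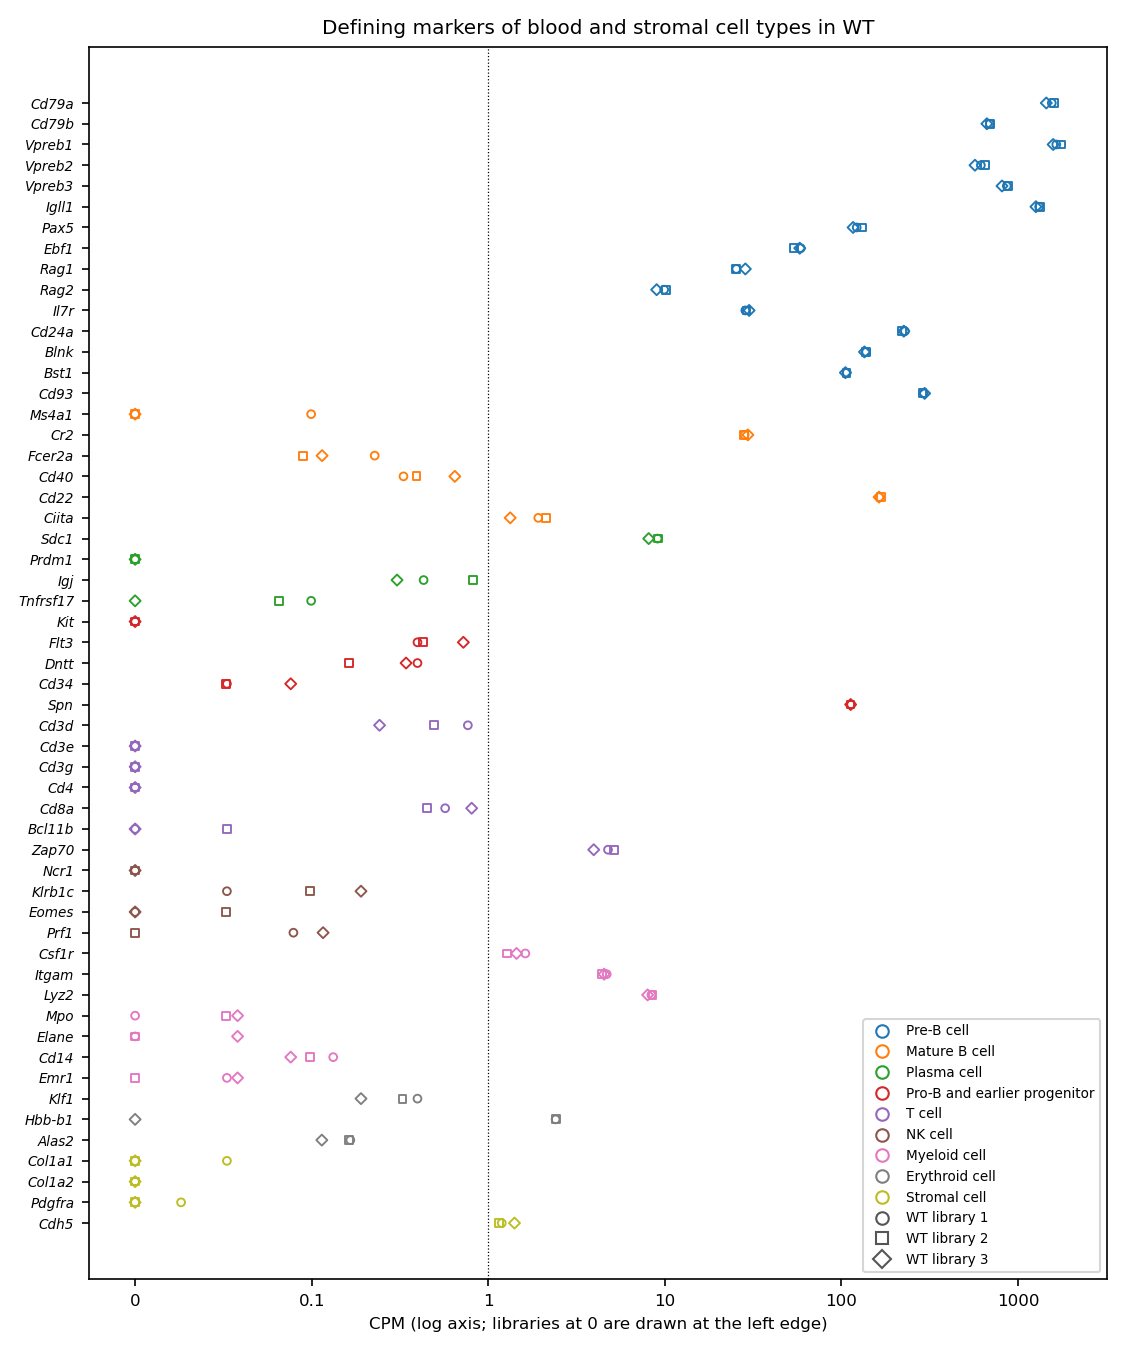
Level in CPM (log axis) of 55 defining markers in the 3 WT libraries, one symbol per library and one colour per cell type, with libraries at 0 drawn at the left edge and a dotted line at 1 CPM. All 15 pre-B markers shown lie right of the line in all 3 libraries, against 10 of the other 40, beside 45.4% of all genes.

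Among the receptor genes, the surrogate light chain was the most abundant component. Levels of different genes are compared in CPM/kb, with lengths from the GENCODE annotation of GRCm38, which is not the build the reads were counted on. Vpreb1 stood at 1648, 1746 and 1582 CPM, which is 2165 ± 108 CPM/kb, and Igll1 at 1318, 1329 and 1263 CPM, or 1498 ± 40.5 CPM/kb. Vpreb3, a related gene, followed at 1257 ± 50.3 CPM/kb, ahead of Cd79a at 1051 ± 52.2, Vpreb2 at 808 ± 54.4 and Cd79b at 522 ± 12.7 CPM/kb. None of these 6 overlapped its neighbour in that order. Genes of the immunoglobulin segments, and so of the heavy chain itself, were not analysed here.

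Of the 30 genes of the pre-B receptor and its co-receptors, 27 (90%) were expressed, beside 45.4% of all genes. After the receptor chains came Cd37, a tetraspanin, at 406 ± 10.9 CPM/kb, and Cd81, another tetraspanin, was at 246 ± 9.48 CPM/kb. Cd24a (heat-stable antigen) was at 229, 221 and 226 CPM and Ptprc (CD45, a phosphatase of all leukocytes), given outside the naming rule, at 182, 179.8 and 184 CPM. The 3 members not expressed were Ms4a1, Cd40 at 0.457 ± 0.167 CPM and Lair1 at 0.198 ± 0.0405 CPM, the last named after its value was seen.

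Of 36 genes of the signalling layer under the receptor, 33 (91.7%) were expressed, beside 45.4% of all genes. The median of those expressed was 22.8 CPM/kb, against 14.5 for all expressed genes. Ptpn6 (SHP-1), an inhibitory phosphatase, was highest per length at 405 ± 10.5 CPM/kb, followed by the PI3 kinase catalytic subunit Pik3cd at 185 ± 1.11, the phospholipase Plcg2 at 124 ± 2.79 and the inositol phosphatase Inpp5d (SHIP) at 112 ± 1.98 CPM/kb. The adaptor Blnk stood at 138, 138 and 135 CPM, and the adaptors Lat2 and Grb2 at 76.4 ± 1.58 and 67.0 ± 0.822 CPM/kb. Syk and Btk, given outside the naming rule, were 173, 176 and 180.1 CPM and 120.3, 124 and 126 CPM. The 3 genes under 1 CPM were the Src-family kinases Fgr, Src and Yes1, at 0.726, 0.240 and 0.0565 CPM, named after their values were seen.

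**Figure D3:**
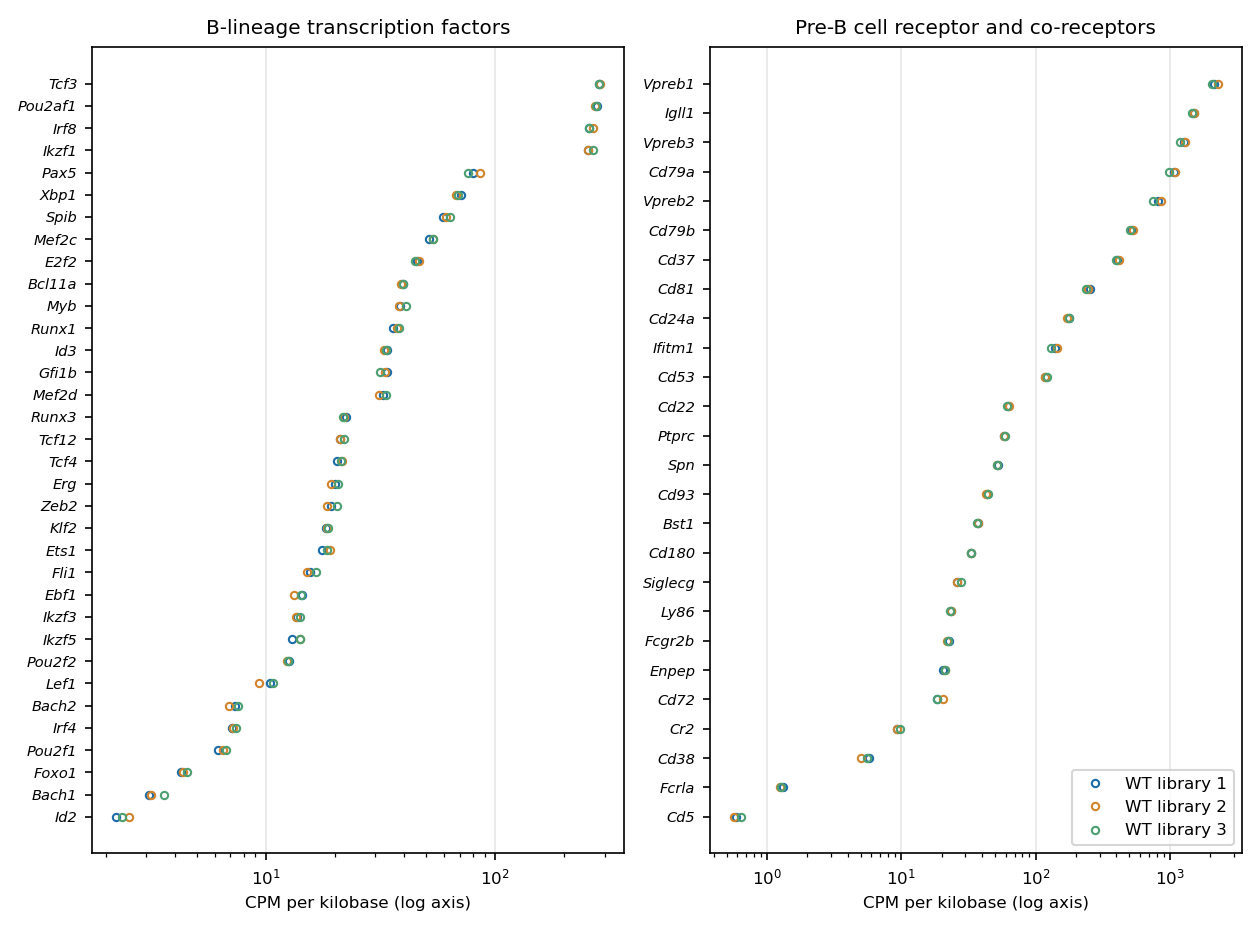
CPM per kilobase (log axis) of the expressed B-lineage transcription factors (left, 34 genes) and genes of the pre-B receptor and co-receptors (right, 26 genes), with 1 point per WT library and genes in order of their mean. Tcf3, Pou2af1, Irf8 and Ikzf1 form a group at the top on the left, and Vpreb1, Igll1, Vpreb3 and Cd79a on the right.

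Transcription factors of the lineage were expressed in 34 of 39 cases (87.2%), beside 45.4% of all genes, and 4 stood well above the rest. Tcf3 (E2A) was 709, 717 and 707 CPM and 284 ± 2.15 CPM/kb, Pou2af1 (the co-activator OCA-B) was 275 ± 3.33 CPM/kb, and Irf8 and Ikzf1 (Ikaros), whose libraries overlapped, were 259 ± 5.56 and 258 ± 6.59 CPM/kb. With the union of exons as the length, Pou2af1 came first. Pax5, the fifth, was 80.6 ± 4.54 CPM/kb, below all 4 in every library. Xbp1, Spib and Mef2c followed at 69.2 ± 1.75, 61.2 ± 2.09 and 52.7 ± 1.16 CPM/kb. Ebf1, which opens the programme together with Tcf3, was 13.9 ± 0.628 CPM/kb, the 24th of 34, and Irf4, given outside the naming rule, was 7.23 ± 0.172 CPM/kb. Prdm1 and Zfp521 were at 0, and Bcl6, a factor of germinal centre cells, was at 0.720 ± 0.0637 CPM.

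The recombination machinery was expressed in 15 of 16 cases, beside 45.4% of all genes, Dntt being the exception. The lymphoid recombinase genes stood at 25.4, 25.4 and 28.6 CPM for Rag1 and 9.91, 10.1 and 8.99 CPM for Rag2, or 4.00 ± 0.277 and 3.66 ± 0.229 CPM/kb. The DNA-bending cofactors Hmgb1 and Hmgb2, abundant chromatin proteins whose order turned with the union of exons as the length, were 1336 ± 27.4 and 765 ± 17.1 CPM/kb. Of the end-joining genes, Xrcc6 (Ku70) at 51.2 ± 1.07 CPM/kb exceeded Xrcc5 (Ku80) at 19.1 ± 0.716 and Xrcc4 at 10.8 ± 0.200 CPM/kb.

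Genes of antigen presentation differed in level between the classes. All 17 class I and peptide-loading genes were expressed, beside 45.4% of all genes, with a median of 75.5 CPM/kb. H2-D1 was at 720.2 ± 19.5, B2m (the light chain) at 667 ± 22.0 and H2-K1 at 435 ± 8.50 CPM/kb. All 14 class II genes were expressed too, but with a median of 5.56 CPM/kb. The invariant chain Cd74 was 249, 248 and 224 CPM, while the chains H2-Aa, H2-Eb1 and H2-Ab1 were at 6.03 ± 0.512, 5.23 ± 0.590 and 2.68 ± 0.353 CPM, and Ciita, their transactivator, was 1.92, 2.13 and 1.33 CPM. Counts of H2 genes depend on how reads were shared among similar genes.

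Of 22 genes of mature or activated B cells, 9 (40.9%) were expressed, a share near the 45.4% of all genes. Cd69, an early activation antigen, was 39.5 ± 1.33 CPM/kb. Tnfrsf13c (the BAFF receptor) was 34.8 ± 0.322 CPM and Tnfrsf13b (TACI) 17.6 ± 0.888 CPM. Cd83, an activation antigen, was at 0. Among 23 progenitor factors, 8 (34.8%) were expressed, beside the same 45.4%, with Lyl1 at 431, 446 and 409 CPM, Hhex at 106 ± 0.865 CPM and Lmo2 at 73.3 ± 1.94 CPM, all transcriptional regulators of early blood cells. Kit, Hoxa9, Gata2, Hlf and Mecom, which mark stem and early progenitor cells, were at 0 in all 3 libraries.

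Cytokine receptors were expressed in 24 of 32 cases, beside 45.4% of all genes. The median of those expressed was 8.32 CPM/kb, against 14.5 for all expressed genes. The common gamma chain Il2rg stood at 53.9, 53.5 and 50.4 CPM and was highest per length at 46.4 ± 1.67 CPM/kb, though another receptor came first with either of the other length definitions. The interferon receptor chains Ifnar1, Ifnar2 and Ifngr1 were 42.4 ± 0.370, 35.6 ± 1.04 and 33.8 ± 1.25 CPM/kb, and Crlf2, which pairs with Il7r in the receptor for thymic stromal lymphopoietin, was 34.3 ± 1.49 CPM/kb against 8.28 ± 0.210 for Il7r. Csf2rb, the common beta chain, was 61.8 ± 1.81 CPM, a value uncertain because of its near-identical neighbour Csf2rb2. Igf1r was at 0, while the insulin receptor gene Insr, named outside the rule, was 16.6 ± 0.497 CPM.

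Adhesion and homing receptors were expressed in 11 of 26 integrin genes and 14 of 32 homing genes, shares of 42.3% and 43.8% that lie near the 45.4% of all genes. Of the integrins, Itgb1 was 208, 201 and 201 CPM, and Itgb2, Itgal and Itga4, which pair as LFA-1 or VLA-4 with Itgb2 or Itgb1, were 59.1 ± 1.07, 14.1 ± 0.764 and 8.28 ± 0.294 CPM/kb. Itgb3, a beta chain better known from platelets, was 104, 107 and 107 CPM, although Itga2b, its platelet partner, was 0.724 ± 0.199 CPM. The alpha chain gene Itgav was expressed, at 6.93 ± 0.477 CPM/kb beside 18.4 ± 0.327 for Itgb3. Itga2, Itga3, Itga5, Itga9, Itgb6 and Itgb8 were at 0. Among homing genes, Selplg (the P-selectin ligand) led at 369 ± 11.1 CPM/kb. Cxcr4, which holds B-cell precursors in the marrow, was 22.7, 21.1 and 23.4 CPM, Vcam1 and 4 chemokine receptor genes (Cxcr1, Cxcr6, Ccr3 and Ccr8) were at 0, and S1pr1 was 0.0501 ± 0.0491 CPM beside 55.6 ± 2.40 for S1pr4.

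Of 22 Toll-like receptor genes and partners, 13 (59.1%) were expressed, beside 45.4% of all genes, led by the chaperone Unc93b1 at 191 ± 1.17 and the kinase Irak1 at 70.2 ± 3.21 CPM/kb. Cd180 (RP105) and its partner Ly86 (MD-1) were 33.0 ± 0.0890 and 23.3 ± 0.319 CPM/kb, while Tlr5, Tlr8 and Tlr11 were at 0. In the Notch pathway, 10 of 20 genes (50%) were expressed, a share near that of all genes, with the target Hes1 at 53.0, 52.8 and 50.7 CPM, the DNA-binding partner Rbpj at 42.7 ± 1.92 CPM and Notch1 at 36.8 ± 1.03 CPM.

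Genes of the pathways that BCR-ABL1 is known to feed were expressed in most cases, beside 45.4% of all genes. In the JAK-STAT list 23 of 24 were, and Socs2, Pim1 and Bcl2l1, which STAT5 is known to induce, stood at 166, 171 and 173 CPM, 148, 146 and 159 CPM and 126, 127 and 121 CPM. Per length they were the highest of the list at 129 ± 2.65, 102 ± 5.02 and 80.9 ± 2.08 CPM/kb, and Jak1 followed at 55.0 ± 1.11. With the union of exons as the length, Pim1 came before Socs2. Others of the list were lower, with Pim2 at 19.1 ± 0.914, Cish at 15.3 ± 0.336 and Socs1, given outside the naming rule, at 3.33 ± 0.0559 CPM/kb. In the list of ERK feedback and immediate early genes, 23 of 28 were expressed. The immediate early genes Jund and Ier2 were its highest members per length, at 352 ± 6.81 and 85.2 ± 2.09 CPM/kb. Etv5, Dusp6 and Etv4, known to follow ERK activity, were 157, 156 and 159.6 CPM, 129.8, 129 and 136 CPM and 64.0, 69.3 and 65.6 CPM. Fos, Egr1 and Dusp1, given outside the naming rule, were 3.21 ± 0.151, 13.7 ± 0.763 and 2.63 ± 0.0690 CPM. Per length Etv5, Dusp6 and Etv4 were 57.4, 51.1 and 28.0 CPM/kb, with Junb and Dusp2 between Dusp6 and Etv4 at 40.9 and 36.2 CPM/kb. Spry1, Spry2, Spry4 and Dusp4, given outside the naming rule, were 4.86, 4.38, 2.77 and 1.14 CPM/kb. Fosl1 was at 0.

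Among oncogene and cell-cycle genes 25 of 27 were expressed, beside 45.4% of all genes, and the 3 D-type cyclins differed in level. Ccnd3 was 2801, 2824 and 2758 CPM, the 25th highest gene of all in CPM, with 2681 ± 32.5 CPM/kb, against 136 ± 1.13 for Ccnd2 and 66.2 ± 0.613 for Ccnd1. Their partner Cdk4 was 424 ± 10.1 CPM/kb, and Cdk6, given outside the naming rule, was 2.11 ± 0.178. Myc stood at 328, 324 and 337 CPM and Trp53 at 249, 253 and 249 CPM. Cdkn2a was 81.6, 79.1 and 73.8 CPM in cells labelled p19 null, and a count per gene cannot separate the transcript of p19ARF from that of p16INK4a or from reads of an altered allele. Cdkn2b, its neighbour, was 0.326 ± 0.0815 CPM. Abl1 at 178, 184 and 201 CPM and Bcr at 79.2, 83.9 and 88.6 CPM, given for the genotype, may include reads of the BCR-ABL1 transgene, and the parts cannot be told apart. Phf6 itself, an X-linked chromatin gene, was 33.0, 33.1 and 34.4 CPM.

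The Bcl2 family was expressed in 15 of 18 cases, beside 45.4% of all genes, on both sides of the apoptotic balance. The effectors Bax and Bak1 were 200.0 ± 5.82 and 94.2 ± 2.50 CPM/kb, and the guardians Bcl2l1 (BCL-XL) and Mcl1 were 80.9 ± 2.08 and 70.2 ± 0.470 CPM/kb. Bcl2 itself, outside the naming rule, was 9.44, 9.20 and 9.85 CPM, lower per length at 1.89 ± 0.0662 CPM/kb than either guardian in every library. Bcl2a1b was 73.2 ± 3.70 CPM/kb, which is uncertain because the Bcl2a1 copies are near-identical. Bik and Hrk, sensitizers of the pathway, were at 0.

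The general machinery was expressed nearly whole. Each of the 44 replication, 43 mitosis, 45 splicing, 36 translation-factor and 33 nucleolar genes measured was at 1 CPM or more in all 3 libraries, as were the 76 mitochondrial ribosomal protein and 17 ATP synthase genes, beside 45.4% of all genes. Of 86 cytosolic ribosomal protein genes, 83 were expressed with a median of 1748 CPM, and together they took 15.1%, 16% and 14.2% of counts in libraries 1, 2 and 3. That share ran opposite to Rn45s, and was 15.5%, 16.1% and 14.8% of the counts left without Rn45s. Eef1a1, the elongation factor, was the highest protein-coding gene in both units, at 14057, 13945 and 13082 CPM and 12090.2 ± 471 CPM/kb.

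**Figure D4:**
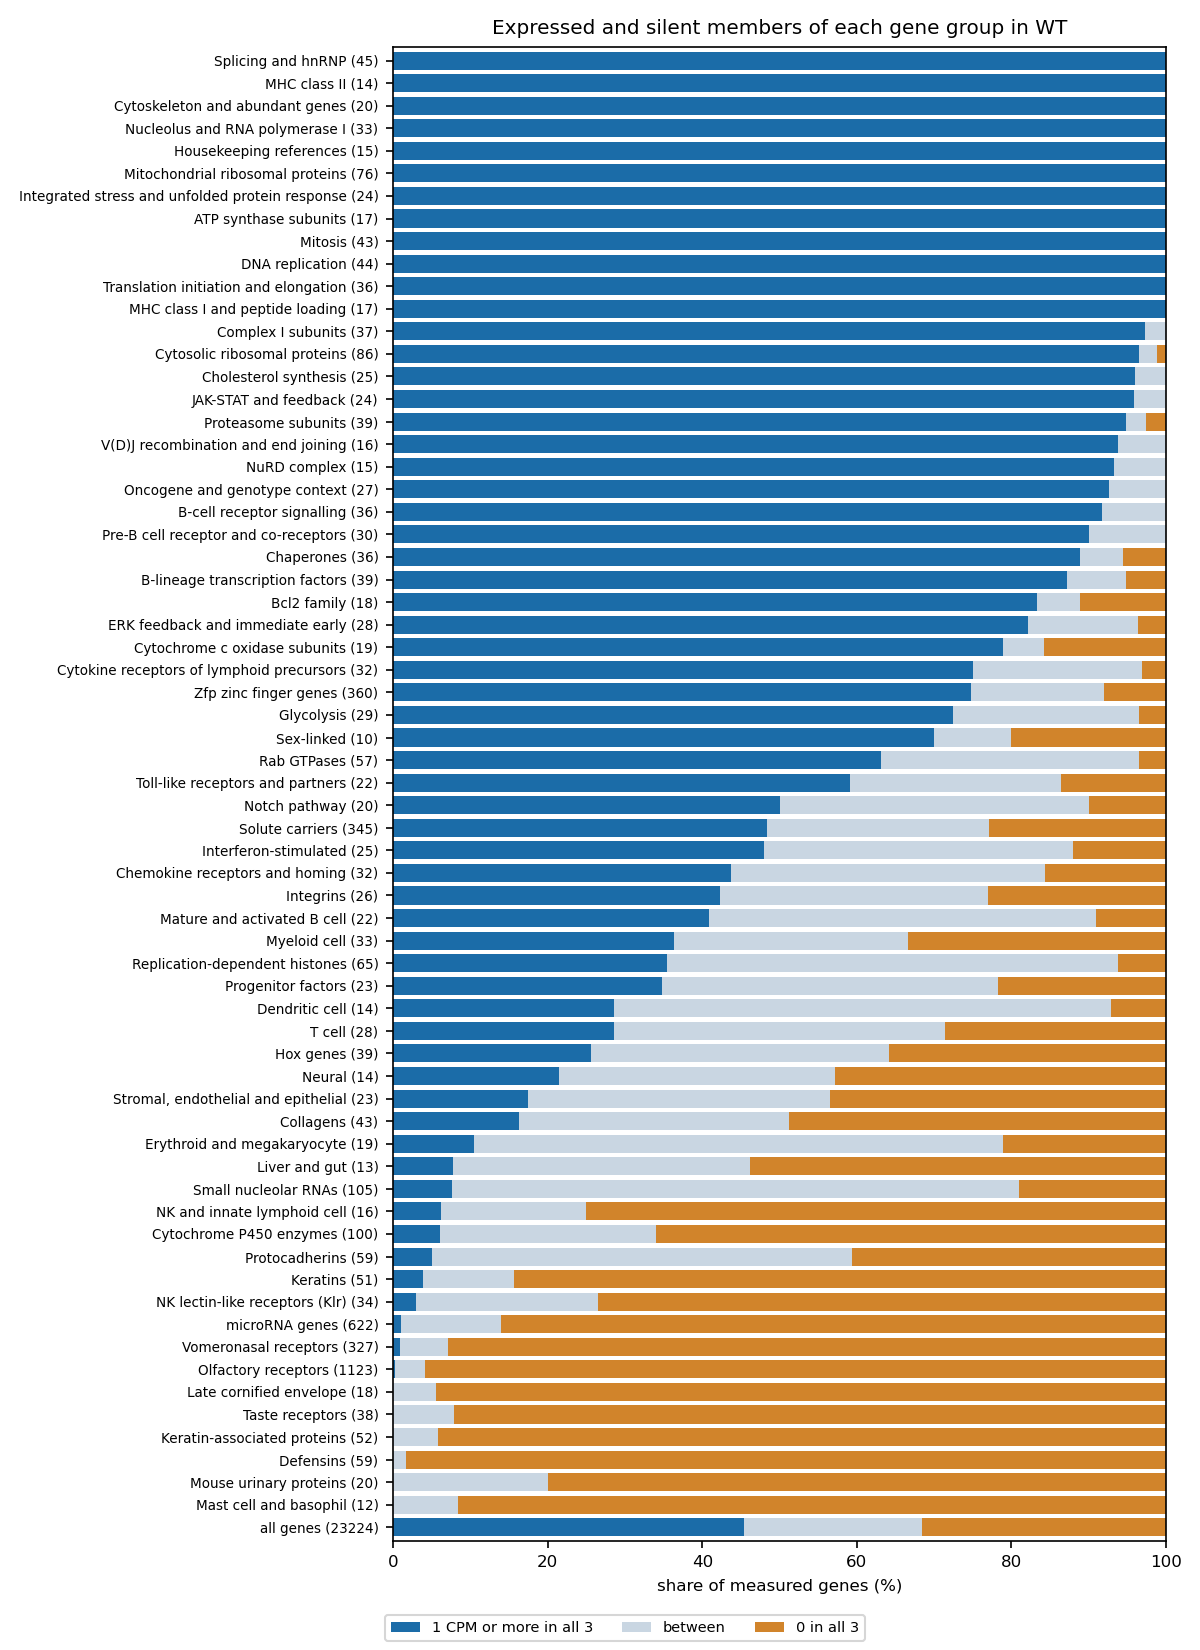
Share of measured genes in percent that were at 1 CPM or more in all 3 WT libraries (dark blue), at 0 in all 3 (orange) or between (light blue), for 40 gene lists, 25 gene families and all genes, with the number measured in brackets. Machinery and pre-B groups lie at the top, sensory receptors, defensins and mast cell genes near the bottom, and the bar for all genes (45.4% and 31.6%) is at the foot of the plot.

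Proliferation genes stood above the 14.5 CPM/kb that was the median of all expressed genes, with medians of 48.6 CPM/kb for replication and 47.9 for mitosis. Pcna, the replication clamp, was 565, 571 and 578 CPM, the helicase subunit Mcm7 was 390.5, 397 and 394 CPM, and Rrm2, of ribonucleotide reductase, was 302 ± 3.67 CPM/kb. Mki67, the proliferation antigen, was 792, 826 and 851 CPM and the mitotic kinase Plk1 was 157 ± 3.73 CPM/kb. In contrast, 23 of 65 replication-dependent histone genes (35.4%) were expressed, beside 45.4% of all genes. The sum of the 65 was 161, 115 and 210 CPM, in libraries made with an mRNA kit. Values of single histone genes are uncertain because of their near-identical copies. Libraries ranked for this sum as for Rn45s, and without library 2 the count of expressed histone genes was 43.

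Nucleolar and chromatin genes included Npm1 (nucleophosmin) at 2329 ± 50.9, Fbl (fibrillarin) at 573 ± 30.6 and Ncl (nucleolin) at 416 ± 5.59 CPM/kb. Of 15 genes of the NuRD complex, a chromatin remodeller and deacetylase, 14 were expressed, beside 45.4% of all genes. Its ATPase Chd4 was 451, 459 and 452 CPM and 103 ± 1.06 CPM/kb, above Chd3, given outside the rule, at 20.6 ± 0.897 CPM/kb, while Chd5, best known from the nervous system, was 0.607 ± 0.197 CPM. Per length Cdk2ap1 at 223 ± 3.94, Rbbp7 at 198 ± 1.45 and Mbd3 at 182 ± 3.98 CPM/kb were the highest of the complex, and with the union of exons as the length Mbd3 came first.

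In metabolism, genes for forms of the same enzyme differed in level. In glycolysis 21 of 29 genes were expressed, beside 45.4% of all genes. Among them were Gapdh at 6298 ± 312, Pkm2 at 3081 ± 100.3, Ldha at 3046 ± 73.8 and Aldoa at 2056 ± 81.7 CPM/kb. The related genes Ldhb and Pklr, outside the naming rule, were 0.0130 ± 0.0225 and 0.0202 ± 0.0177 CPM/kb. Ldha and Pkm2 exceeded them by far more than the spread of the libraries. Pkm2 is a gene symbol here, and its count does not separate the transcripts of that gene. Cholesterol synthesis was expressed in 24 of 25 genes, beside the same 45.4%. Fdps was at 309, 315 and 289 CPM and the regulator Srebf2 at 249, 247 and 255 CPM. Chaperones were expressed in 32 of 36 cases, also beside 45.4% of all genes. Hsp90ab1 at 4545 ± 109 and Hspa8 at 2198 ± 60.1 CPM/kb led them, while the heat-inducible Hspa1a was 0.0473 ± 0.0820 CPM.

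All 24 genes of the integrated stress and unfolded protein responses were expressed, beside 45.4% of all genes. Those of amino acid supply led, with the serine pathway gene Phgdh at 919, 919 and 872 CPM, the transport chain Slc3a2 at 529 ± 5.35, Asns (asparagine synthetase) at 373 ± 5.41 and the factor Atf4 at 639 ± 17.8 CPM/kb. In the interferon-stimulated list 12 of 25 genes (48%) were expressed, near the 45.4% of all genes, with a median of 3.09 CPM/kb among them against 14.5 for all expressed genes. Its highest member per length, Bst2 (tetherin), was 40.8, 41.0 and 40.4 CPM, whereas Ifi44, Rsad2 and Cxcl10 were at 0, and Mx1 and Ifit1, outside the naming rule, were 0.531 ± 0.0889 and 0.0226 ± 0.0392 CPM.

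Several gene families had few expressed members or none, whereas 31.6% of all genes were at 0 and 45.4% were expressed. Of 1123 olfactory receptor genes, 1077 were at 0 and 2 were expressed, and of 327 vomeronasal receptor genes, 304 were at 0 and 3 were expressed. No taste receptor (38 genes), defensin (59), keratin-associated protein (52), late cornified envelope (18) or mouse urinary protein gene (20) was expressed. Keratins were expressed in 2 of 51 cases, NK lectin-like receptors in 1 of 34, cytochrome P450 genes in 6 of 100 and protocadherins in 3 of 59, or 5 without library 2. Of the protocadherins 24 were at 0 and 32 lay between, and of the cytochrome P450 genes 66 were at 0. The mast cell list had no expressed gene among 12, with 11 at 0, and the NK list had 12 of 16 at 0, including Gzma, Gzmb, Tbx21 and Nkg7. At this depth a gene at 0 may still lie below the floor of 3 counts. Of 622 microRNA genes 535 were at 0, but an mRNA library does not measure mature microRNAs.

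Several lists of other lineages held a few genes at high level. Cd2, an adhesion receptor of T and B lymphocytes, was 197, 197 and 186 CPM. Of the 28 T cell genes, 8 were at 0, among them Cd3e and Cd4, beside 31.6% of all genes. Irf8 and Cst3, of the dendritic list, were 259 ± 5.56 and 504 ± 26.5 CPM/kb, although Cd209a was at 0 and Itgax was 0.159 ± 0.0802 CPM. Tfrc, the transferrin receptor listed with erythroid genes, was 297, 301 and 333 CPM, a receptor that dividing cells of many kinds carry. Hbb-b2, a beta globin gene, was 54.3, 54.4 and 50.3 CPM, with Hbb-b1 at 2.41, 2.43 and 0 CPM and the alpha globin Hba-a1 at 0.0964 ± 0.0830 CPM, and reads of the 2 near-identical beta globin genes cannot be placed with certainty. Vim (vimentin) was 766, 768 and 728 CPM beside Col1a2, Col3a1 and Pdgfrb at 0.

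Promoters of expressed genes held more CpG than those of silent genes, in a description over 17222 genes with a RefSeq start region. The median count in 300 bases was 3 for genes at 0, 8 for those under 1 CPM, 17 from 1 to 10 CPM, 22 from 10 to 100, 23 from 100 to 1000 and 21.5 at 1000 CPM or more. Expressed genes of the pre-B receptor list had a median of 4 (22 promoters) and those of MHC class II of 3 (10 promoters), while replication genes had 21 (35 promoters) and ribosomal protein genes 22 (61 promoters). Low medians were also found in other lists, where the expressed members of the myeloid list had 4.5, of chemokine receptors and homing 5, of the T cell list 7.5 and of the interferon-stimulated list 9. Receptor signalling genes had 11, and transcription factors, with 18.5, lay near the machinery lists. The Vpreb and Igll1 windows printed above, with 1 or 2 CpG, are thus at the level of silent genes.

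**Figure D5:**
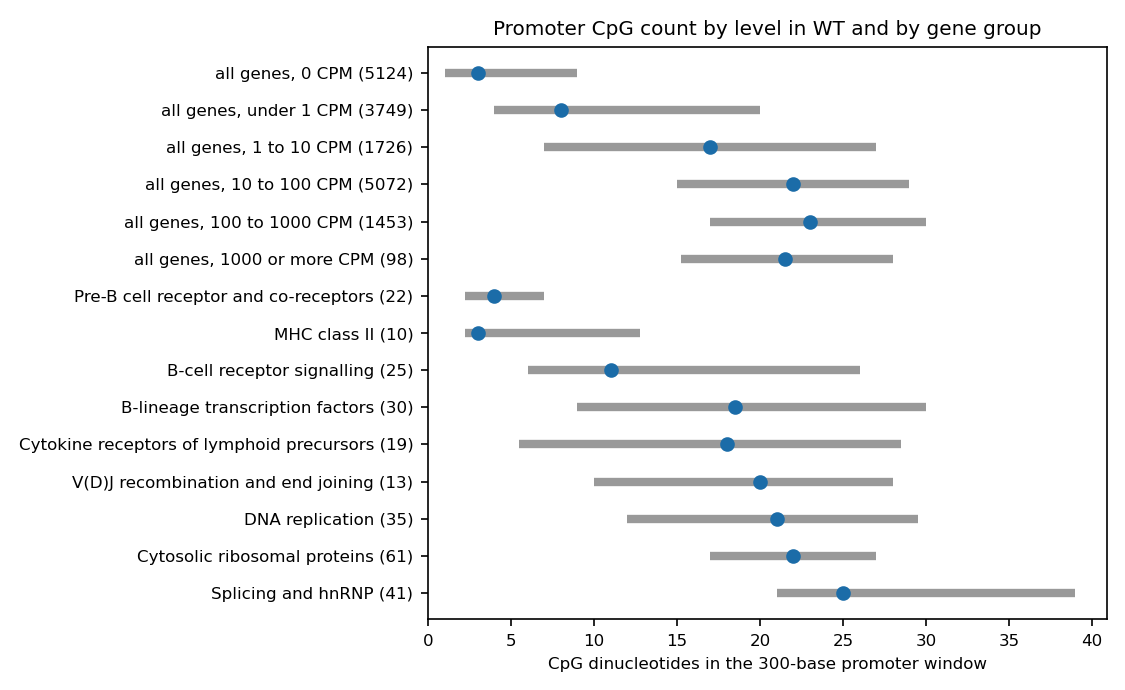
CpG dinucleotides in the 300-base start region by level class over all genes (upper 6 lines) and for the expressed members of 9 gene groups, with medians as points, the interquartile range of the promoters as bars and the number of promoters in brackets. The pre-B receptor group (median 4) and MHC class II (median 3) lie beside the class at 0 (median 3), and the machinery groups beside the expressed classes.

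The letters CACCTG, on either strand, occurred in 9 of 22 pre-B receptor windows (40.9%) and 10 of 25 receptor signalling windows (40.0%), beside 19.3% of all windows and 16.1% of those of expressed genes. Vpreb1 and Vpreb2, whose matches lie in a shared stretch, are both counted among the 9. Some other lists had higher shares among their few expressed genes, with 4 of 6 windows (66.7%) for T cell genes, 5 of 10 (50%) for chemokine receptors and homing and 3 of 6 (50%) for mature B cell genes. Transcription factor windows held them in 3 of 30 cases (10.0%). The TATA letters TATAAA, which share no overlap with that motif, occurred in 12.7% of all windows, 6.49% of those of expressed genes and 23.5% of those of genes at 0. A match is a run of letters and not a shown binding site.

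Within the series, most baseline genes stayed at 1 CPM or more, a cut that does not describe their level. Some lists kept fewer in all 12 libraries: 8 of 14 expressed MHC class II genes, 7 of 11 integrin genes and 4 of 12 myeloid genes. Of the 10551 genes expressed in WT, 9963 (94.4%) were at 1 CPM or more in all 12 libraries. All 3 KD libraries had 10470 of them, all 3 KO_sg1 libraries 10110 and all 3 KO_sg4 libraries 10130, without a test of the differences. Of the 7330 genes at 0 in WT, 5733 (78.2%) were at 0 in all 12, none reached 1 CPM in all KD libraries, and 2 did so in each knockout group, Plxdc2 and 6330403A02Rik in KO_sg1 and H2-Q6 and Tgoln2 in KO_sg4, named after their values were seen. Phf6, the targeted gene, ran from 9.35 to 10.3 CPM in KD, 3.01 to 3.29 in KO_sg1 and 27.6 to 46.8 CPM in the libraries labelled KO_sg4, a range that includes the WT values of 33.0 to 34.4 CPM. The genes Ddx3y, Kdm5d and Uty of the Y chromosome were 44.0 ± 4.05, 24.4 ± 1.25 and 10.2 ± 1.11 CPM in WT, and at most 0.0754, 0 and 0.133 CPM in the knockout libraries.

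For the lineage genes the other 9 libraries together covered wider ranges than the 3 WT libraries. Vpreb1 ran from 1582 to 1746 CPM in WT and from 1002 to 4389 CPM in the others, and Cd79a from 1447 to 1594 and from 1544 to 4845 CPM. Il7r was 28.6 to 30.0 CPM in WT and 29.2 to 136 CPM elsewhere, and Rag1 25.4 to 28.6 and 11.9 to 113 CPM. Tcf3 stayed within 493 to 708 CPM and Pax5 within 109 to 191 CPM in the other 9 libraries. These ranges pool 3 groups and are given without a contrast.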

How the data were processed

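The deposited table holds the authors' estimated counts (RSEM expected counts, not whole numbers) for 23224 genes by symbol in 12 libraries. The submitters' processing notes name RSEM 1.2.12, Bowtie 1.0.1 and the mm9 genome, and per the labels' protocols cells grew in RPMI-1640, RNA came from RNeasy columns and libraries from a TruSeq mRNA kit. Not given in the sources used here were annotation, strand setting and read length. RSEM divides reads that match several genes by estimated abundance, so near-identical, overlapping and antisense genes are uncertain. Intervals and floors cover counting error only.

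CPM was each estimated count over the library total. Transcript lengths, the mean over coding transcripts in GENCODE M21 of GRCm38, were found for 22798 genes and used for CPM per kilobase only. Start regions came from RefSeq (GRCm38.p6), the first listed per symbol, for 17222 symbols. The spread was estimated by edgeR 4.0.16 on counts rounded to whole numbers (common biological coefficient of variation 0.0371 over 11402 genes), a step tested on simulated data. DESeq2 1.42.0 gave an alternative scaling. No test between groups was made. Members and gene lists were chosen with earlier results of these data known. Named genes are the 25 highest in CPM, 15 per kilobase, the cell type markers, up to 8 members per list by level per kilobase, the top 3 per family and the 15 most variable. List members at 0 or under the floor that a list is known by were also named. Some genes that this rule names are not reported here.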

Additional observations from a re-analysis of the deposited data

How the results depend on the processing

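The count of expressed genes ran from 10588 to 10632 when each replicate was left out in turn and from 9985 to 11076 over the other scalings and thresholds of 2 and 0.5 CPM. Genes at 0 ran from 7710 to 7850 without one replicate and were 7512 with under 1 estimated count. The genes holding 50% of counts were 506 to 517 without one replicate and 554 without Rn45s, but 208 when levels were taken per kilobase, which weights short genes. The biological coefficient of variation was 0.0252 to 0.0469 without one replicate and 0.0371 to 0.0384 under other filters and scalings. TMM and DESeq2 scaling moved none of the 65 list and family counts, while 4 moved by over 1.5 times at 0.5 CPM, 8 at 2 CPM and 2 without replicate 2. At 2 CPM the expressed members were 5 T cell, 0 NK, 2 stromal, 12 histone, 0 small nucleolar RNA, 1 keratin, 0 protocadherin and 0 Klr genes. At 0.5 CPM they were 46 histone, 4 keratin, 7 protocadherin and 2 Klr genes, and without replicate 2 they were 43 histone and 5 protocadherin genes. Without Rn45s in the total, mean levels rose 1.02 to 1.03 times, more than 1 SD for 280 of 958 genes. The gene highest per kilobase changed in 2 lists with the longest transcript and in 11 with the union of exons as length, among them Pou2af1 in place of Tcf3, S1pr4 in place of Cd69 and Mbd3 in place of Cdk2ap1. With the last listed start region per gene, the median CpG count of transcription factors was 15, and those of genes at 0, expressed genes, pre-B receptor and replication genes did not move. This alternative and the ribosomal share without Rn45s were chosen after seeing the data. No paired analysis was possible because the results are descriptions of 1 group and come from no test between groups that a replicate number could block. With 3 libraries per gene, levels below 1 CPM rest on few reads.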

Other observations

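In families with few expressed members, a few genes stood out, all chosen after their values were seen. Of 39 Hox genes, which pattern the body axis, 10 were expressed, 14 were at 0 and 15 lay between. Of all genes, 45.4% were expressed and 31.6% were at 0. Of the 10 expressed Hox genes, 7 were in the Hoxb cluster. Hoxb8, a gene known to be active in early blood progenitors, was 177, 167 and 169.8 CPM in the 3 WT libraries, or 116 ± 3.28 CPM/kb, above Hoxb7 at 19.3 ± 0.859 and Hoxb6 at 15.7 ± 0.836 CPM/kb (SD, n = 3), while Hoxb9 was at 0 and Hoxa9 was at 0 too. In the other 9 libraries Hoxb8 ran from 57.0 to 320 CPM. No test was made of these values.

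Collagen genes, structural proteins of connective tissue, were expressed in 7 of 43 cases (16.3%), beside 45.4% of all genes. There were 21 at 0, among them the fibroblast collagens Col1a2 and Col3a1. Col6a6 was 124, 129 and 148 CPM and Col27a1 85.5 ± 3.81 CPM. Cyp4f18, a cytochrome P450 of fatty acid metabolism known from neutrophils, was 251, 249 and 238 CPM of a family sum of 305 to 318 CPM. Olfactory receptor symbols were expressed in 2 cases, Olfr856-ps1 at 46.8, 50.1 and 49.4 CPM and Olfr613 at 36.7, 40.3 and 41.1 CPM, beside 1077 of 1123 at 0. Lgr5, a stem cell receptor of the gut, was 24.4, 21.5 and 24.0 CPM. Eif2s3y, a Y-linked gene, had no reads in any of the 12 libraries, although Ddx3y, Kdm5d and Uty on the same chromosome were expressed in WT.

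The genes that differed most between the WT libraries were few. Pisd-ps1, a pseudogene, was 23.4, 33.6 and 0.000761 CPM, and Gvin1, an interferon-inducible GTPase gene, was 23.8, 26.8 and 93.3 CPM, with library 3 apart from the others for both. Mir5109 was 254, 155 and 322 CPM and Lars2, a mitochondrial leucyl-tRNA synthetase, 6843, 4578 and 8874 CPM, in the same library order as Rn45s at 24326, 9148 and 39376 CPM. What sets that order was not tested.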
